A study of Mus musculus with 12 samples.

Results

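The genes of cholesterol and fatty acid synthesis, with the regulators and efflux transporters that control sterol levels, were followed in mouse splenic follicular B cells before and after stimulation of the B cell receptor. Members were 34 genes listed by symbol from the pathway, of 22744 genes tested on the array, and each was read from the probe with the highest mean signal among those assigned to it by RefSeq accession. By role they were 7 mevalonate-step genes, 11 squalene and sterol-step genes, 6 genes of fatty acid synthesis, 5 genes of the control of SREBP (sterol regulatory element binding protein), the sterol carrier gene Stard4, and 4 genes of the liver X receptors (LXR) and sterol efflux. All 34 were tested, and 33 of them were well above background on all 12 arrays. The exception, Nr1h3, cleared background on a single WT 24 h array (1 of 3) and on every array of the other groups.

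Cells came from the spleens of male C57BL/6J mice, either wild type (WT) or lacking Bach2 (Bach2-/-), a transcriptional repressor of B cells, and total RNA was hybridised with Cy3 to one-colour oligonucleotide arrays, 1 sample per array. The 4 groups, of 3 arrays each, were WT 0 h and Bach2-/- 0 h, without stimulation, and WT 24 h and Bach2-/- 24 h, after 24 hours with 10 µg/mL of an anti-IgM Fab' reagent that engages the B cell receptor. The series was designed to ask how Bach2-/- follicular B cells differ from WT in the genes they express around receptor stimulation. The labels used here give no age and do not say how the mutant allele was made. Nor do they say whether the 3 arrays of a group came from separate animals, so the p-values reflect only sample-to-sample spread, part or all of which could be technical.

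As background, cells make cholesterol from acetyl-CoA through mevalonate, isoprenoids, squalene and a run of sterol intermediates, and make fatty acids from the same precursor. When membranes hold little sterol, the escort protein SCAP carries SREBP to the Golgi, where it is cut and released to the nucleus to switch on the synthesis genes; INSIG proteins hold SCAP back when sterol is plentiful. The LXR receptors answer oxysterols and switch on export pumps such as ABCA1 and ABCG1. Lymphocytes that are about to divide need new membrane, and both programs are known to be adjusted on activation.

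Several arrays stood apart. The 2 slides held array 1 of each group (slide 2, scanned on another day) and arrays 2 and 3 (slide 1), and array 1 had the highest value for 29, 27, 32 and 24 of the 34 members in WT 0 h, WT 24 h, Bach2-/- 0 h and Bach2-/- 24 h. The array labelled Bach2-/- 0 h array 1 had 0 of 4 Y-linked genes above background although the labels say male, against 3 or 4 of the 4 on each other array. Bach2-/- 24 h array 2 was the dimmest, with a 75th percentile of 97.3 units against 174.5 to 357.5 units on the others, and it held the lowest value of its group for 28 of the 34 members. The last 2 arrays are called the doubted arrays, and values without them are given beside results that moved. Leaving arrays out also unbalances the slides. Without both doubted arrays, Bach2-/- 0 h keeps slide 1 alone and Bach2-/- 24 h keeps both slides. Slide 2 mostly read higher for the members, so slide and response cannot be told apart in that fit. Bach2, the deleted gene, read 3.79, 3.23 and 3.54 in WT 0 h and 1.11, 0.80 and 0.96 in Bach2-/- 0 h (log2 signal relative to the 75th percentile of the array, the scale used throughout). The 7 B cell markers were above background on all 12 arrays, and their summed signal was 1000 to 1310 in WT 0 h, 400 to 724 in WT 24 h, 1070 to 1620 in Bach2-/- 0 h and 208 to 342 in Bach2-/- 24 h. In bulk RNA, fewer cells of a type and less RNA per cell cannot be told apart.

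RefSeq promoter windows (GRCm38.p6, 250 bases before to 50 bases after the annotated start) were found for 27 of the 34 members. They are shown for Hmgcs1, the only member whose window held the sterol element core, for Idi1, Cyp51 and Insig1, which rose in both genotypes, and for the efflux gene Abca1, which fell in both. The last 4 were chosen after their values were seen. Capitals mark matches, on either strand, to the sterol element core TCACNCCAC and to CCAAT, which reads ATTGG on the other strand.
Hmgcs1, chr13:119690101-119690400, plus strand: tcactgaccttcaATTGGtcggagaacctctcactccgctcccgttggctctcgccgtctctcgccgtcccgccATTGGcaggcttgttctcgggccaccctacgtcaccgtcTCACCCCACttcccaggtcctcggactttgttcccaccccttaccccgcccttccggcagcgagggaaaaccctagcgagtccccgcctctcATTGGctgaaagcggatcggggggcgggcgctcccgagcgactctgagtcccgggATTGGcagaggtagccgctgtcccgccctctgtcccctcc
Idi1, chr13:8885356-8885655, plus strand: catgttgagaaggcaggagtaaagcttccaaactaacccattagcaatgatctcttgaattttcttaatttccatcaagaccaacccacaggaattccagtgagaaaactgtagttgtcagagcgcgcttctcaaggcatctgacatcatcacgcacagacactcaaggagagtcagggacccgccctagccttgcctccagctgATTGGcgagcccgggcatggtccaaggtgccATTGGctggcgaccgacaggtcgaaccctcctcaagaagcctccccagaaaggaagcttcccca
Cyp51, chr5:4104648-4104947, minus strand: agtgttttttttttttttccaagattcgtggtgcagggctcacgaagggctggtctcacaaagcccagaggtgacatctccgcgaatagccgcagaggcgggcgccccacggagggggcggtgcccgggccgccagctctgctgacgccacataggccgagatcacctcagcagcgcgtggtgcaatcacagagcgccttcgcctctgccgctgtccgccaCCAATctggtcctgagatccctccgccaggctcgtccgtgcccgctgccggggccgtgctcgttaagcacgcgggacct
Insig1, chr5:28071162-28071461, plus strand: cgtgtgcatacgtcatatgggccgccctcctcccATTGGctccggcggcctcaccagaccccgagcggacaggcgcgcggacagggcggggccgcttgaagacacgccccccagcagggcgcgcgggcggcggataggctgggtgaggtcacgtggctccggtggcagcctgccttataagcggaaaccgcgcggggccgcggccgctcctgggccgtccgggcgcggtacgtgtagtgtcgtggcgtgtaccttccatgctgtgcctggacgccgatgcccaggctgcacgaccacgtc
Abca1, chr4:53159846-53160145, minus strand: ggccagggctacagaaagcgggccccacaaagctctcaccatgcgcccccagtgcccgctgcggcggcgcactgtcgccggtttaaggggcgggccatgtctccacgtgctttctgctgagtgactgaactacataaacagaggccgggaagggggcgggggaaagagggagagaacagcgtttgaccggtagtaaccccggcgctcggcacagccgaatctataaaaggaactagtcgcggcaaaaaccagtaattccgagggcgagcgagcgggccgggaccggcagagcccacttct
The Hmgcs1 window held 1 sterol element core, beginning 137 bases before the start, and 4 CCAAT matches, none of which shared a base with it. Idi1 held 2 CCAAT matches and Cyp51 and Insig1 held 1 each. Abca1 held neither motif.

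Over the 27 windows, CCAAT, the core of the site bound by NF-Y, was found in 20, against 41.1% of all 27025 mouse genes with a window, a gene with several windows counting once if any held the motif. Among the 15 cholesterol synthesis genes with a window it was found in 14, the exception being Acat2, and among the 3 LXR and efflux genes with a window it was found in 0. The sterol element core was found in 1 of the 27 windows, against 1.44% of all genes. The GC box GGGCGG was found in 21 of the 27, against 38.2% of all genes, and the E box CACGTG in 6 (Hsd17b7, Sc5d, Dhcr7, Scap, Insig1 and Abca1), against 8.09%. The LXR element, searched as an exact direct repeat on both strands, was found in 0 of the 27 and in 0.0148% of all genes. These are matches of letters within the windows, not measured binding sites.

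After 24 hours with anti-IgM, WT cells carried more message for most of the cholesterol synthesis route and far less for the sterol exporters. Of the 34 members, 17 rose and 3 fell (limma, Benjamini-Hochberg adjusted p under 0.05 over 22744 genes), where 12.5% of all genes rose and 9.38% fell. With the replicate number as a block, 22 rose and 5 fell, where 27.9% and 19.4% of all genes did. The count of 20 was 11 without WT 0 h array 3 and 13 without WT 24 h array 1. In Bach2-/- cells 8 members rose and 4 fell, where 5.92% and 8.11% of all genes did, and with the replicate block 16 rose and 4 fell, against 17% and 16.9% of all genes. Without both doubted arrays, 15 members rose and 2 fell in Bach2-/- cells, and 18 rose and 5 fell in WT cells. The Bach2-/- counts of that fit include the slide imbalance given above. Shares of all genes were not taken for the fits with arrays left out, so those counts cannot be set against the rest of the genes.

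**Figure D1:**
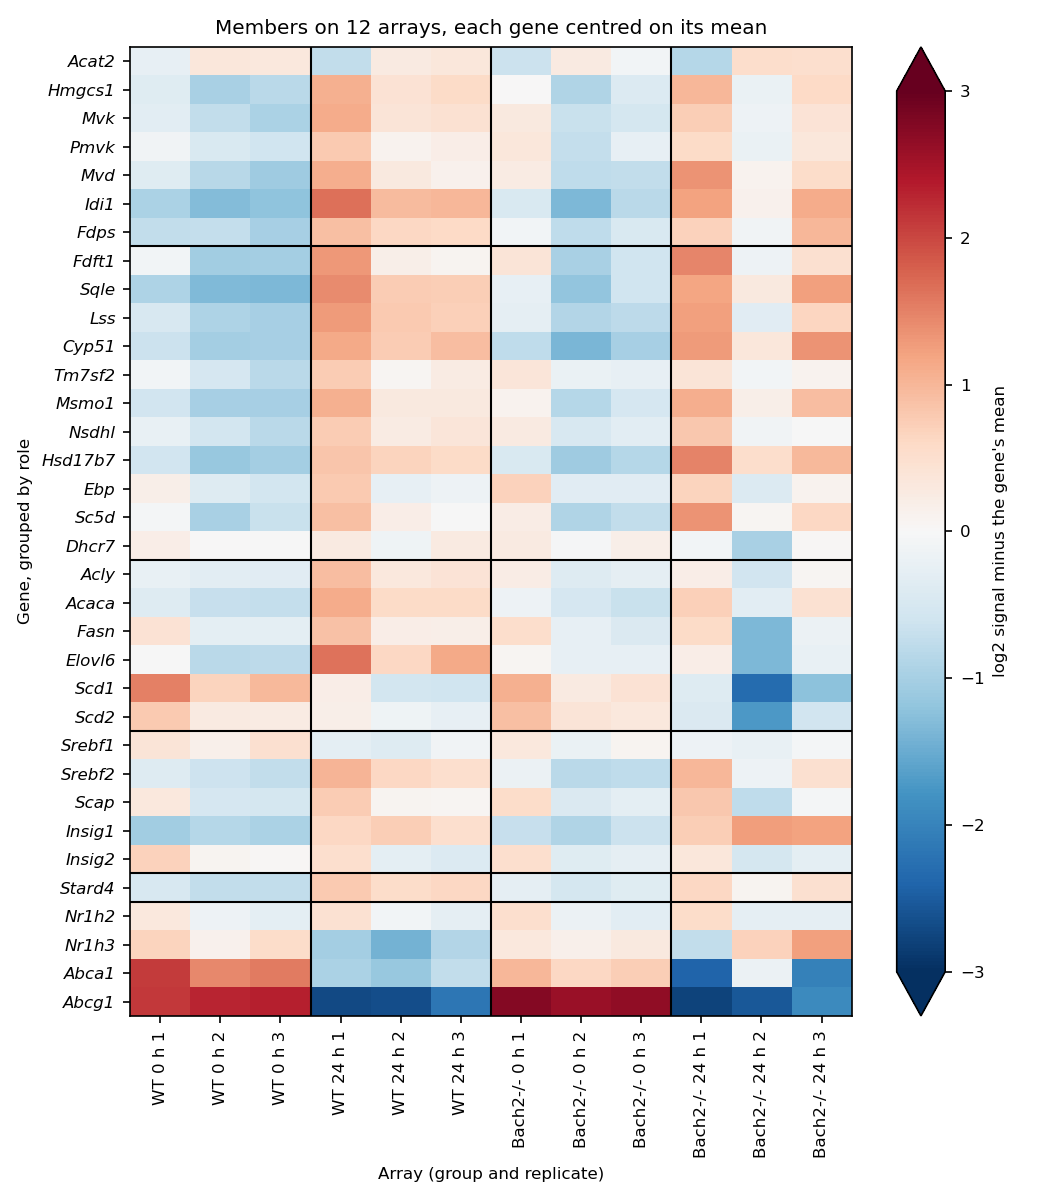
Signal of the 34 members on the 12 arrays (columns, by group and replicate), as log2 signal minus the mean of each gene over the arrays; black lines separate groups and roles. Most of the 18 cholesterol synthesis genes in the top blocks are redder at 24 h in both genotypes, Abca1 and Abcg1 at the bottom are blue at 24 h, and the first array of each group is redder than its partners for most genes.

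The mevalonate steps turn acetyl-CoA units into the isoprenoid farnesyl diphosphate. Of their 7 genes, 5 rose in WT cells (Hmgcs1, Mvk, Mvd, Idi1 and Fdps) and 1 rose in Bach2-/- cells (Idi1), with medians of 1.32 and 0.90 on the log2 scale against 0.041 and 0.073 over all genes. With the replicate block the counts were 6 and 5. Idi1, the isomerase that supplies the reactive isoprenoid unit, had the largest change of the group. It read 2.46, 2.11 and 2.19 in WT 0 h, 5.07, 4.37 and 4.41 in WT 24 h, 2.95, 2.06 and 2.60 in Bach2-/- 0 h, and 4.63, 3.53 and 4.51 in Bach2-/- 24 h. Every stimulated array lay above every unstimulated array. The rise was 5.14-fold in WT cells (log2 change 2.36 ± 0.35, SE, n = 3 per group, limma adjusted p = 0.000758) and 3.22-fold in Bach2-/- cells (1.69 ± 0.35, limma adjusted p = 0.0064).

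Hmgcs1, which makes HMG-CoA and whose promoter window held the sterol element core, read 3.80, 3.20 and 3.36 in WT 0 h and 5.25, 4.60 and 4.76 in WT 24 h. The groups did not overlap, and the gene rose 2.67-fold (1.42 ± 0.35, limma adjusted p = 0.0142), a call lost without WT 0 h array 2 or 3 or WT 24 h array 1 (limma adjusted p 0.0533 to 0.0567). In Bach2-/- cells it read 4.19, 3.27 and 3.75 at 0 h and 5.16, 3.98 and 4.76 at 24 h, so the groups overlapped (0.90 ± 0.35, limma adjusted p = 0.131, 0.00154 with the replicate block, and 0.0333 without Bach2-/- 24 h array 2). Fdps, farnesyl diphosphate synthase, rose 2.87-fold in WT cells (1.52 ± 0.30, limma adjusted p = 0.00421). Its change in Bach2-/- cells was 0.95 ± 0.30 (limma adjusted p = 0.0578, 0.0104 with the block, and 0.00675 without Bach2-/- 24 h array 2).

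Mvk and Mvd, mevalonate kinase and decarboxylase, rose 2.49-fold and 2.38-fold in WT cells (limma adjusted p = 0.0182 and 0.0474). Both calls were lost under some alternatives, Mvd under 12 of 23. Their log2 changes in Bach2-/- cells were 0.64 and 1.08, which did not pass (limma adjusted p = 0.297 and 0.113). They passed with the replicate block (0.0132 and 0.00079) and without both doubted arrays (0.038 and 0.0221). Pmvk, the second kinase, changed by 0.75 in WT cells (limma adjusted p = 0.13, and 0.00454 with the block) and by 0.44 in Bach2-/- cells. Acat2, cytosolic thiolase, was the member of this group with a negative WT change, −0.17, and its groups overlapped in every comparison.

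**Figure D2:**
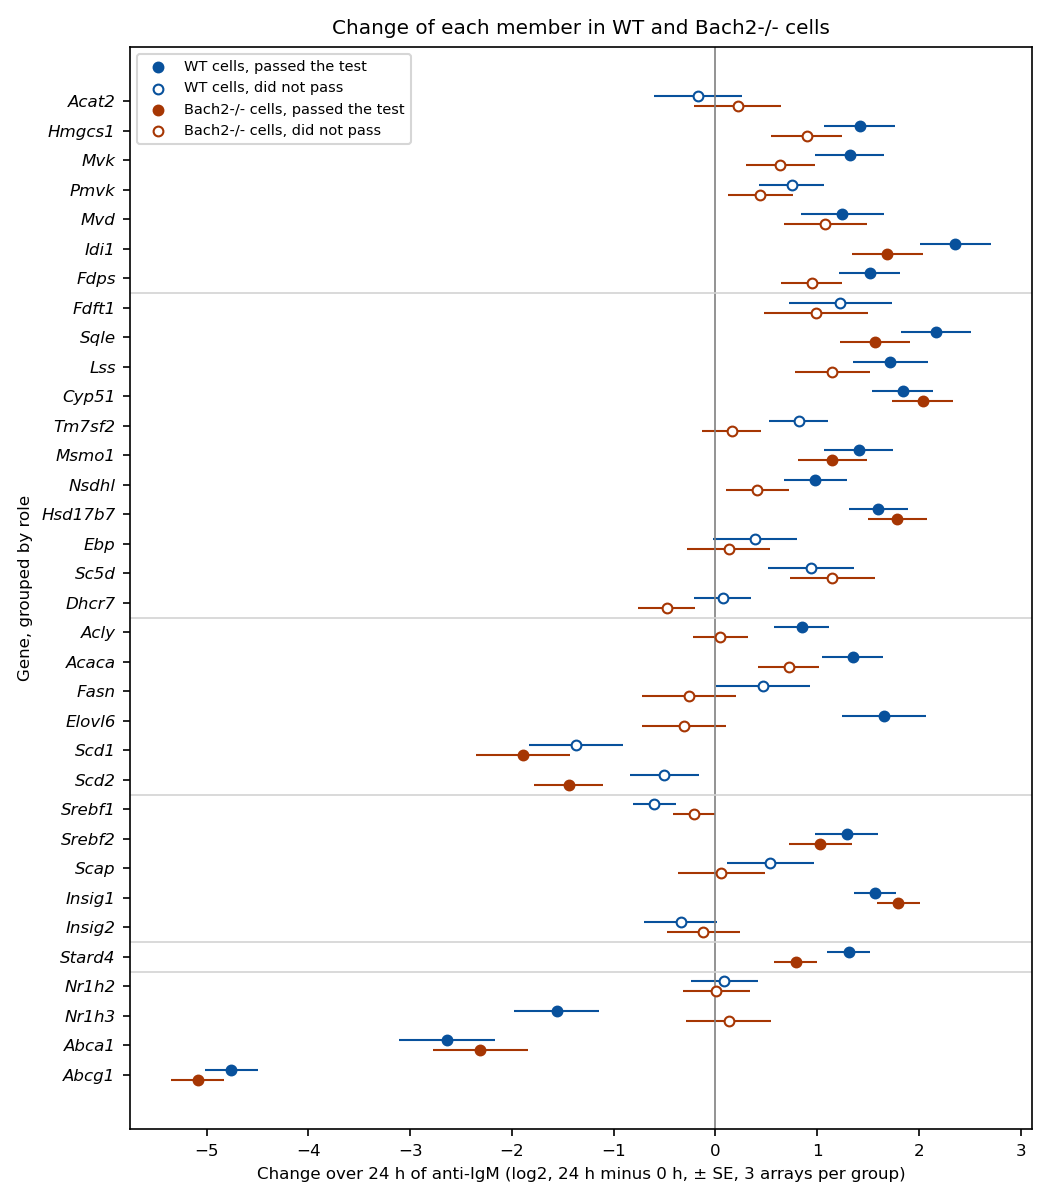
Change of each member over 24 h of anti-IgM (horizontal axis, log2 difference, 24 h minus 0 h, with SE bars and 3 arrays per group) in WT cells (blue) and Bach2-/- cells (orange); filled points passed limma's test at an adjusted p under 0.05. Points of the cholesterol genes lie mostly between 0 and 2.36 in both genotypes, Elovl6 and Nr1h3 have the widest gaps between genotypes, and Abcg1 lies farthest to the left at −4.76 and −5.09.

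The squalene and sterol steps join farnesyl units and close and trim the ring. Of these 11 genes, 6 rose in WT cells (Sqle, Lss, Cyp51, Msmo1, Nsdhl and Hsd17b7) and 4 in Bach2-/- cells (Sqle, Cyp51, Msmo1 and Hsd17b7), with medians of 1.23 and 1.15. With the replicate block 9 and 7 rose. Sqle encodes squalene epoxidase, a rate-controlling enzyme. Its values were 2.68, 2.27 and 2.26 in WT 0 h, 5.01, 4.37 and 4.33 in WT 24 h, 3.36, 2.42 and 3.01 in Bach2-/- 0 h, and 4.77, 3.89 and 4.82 in Bach2-/- 24 h. Stimulated and unstimulated arrays did not overlap in either genotype. It rose 4.49-fold in WT cells (2.17 ± 0.34, limma adjusted p = 0.00112) and 2.96-fold in Bach2-/- cells (1.57 ± 0.34, limma adjusted p = 0.00866).

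Cyp51, the lanosterol demethylase, read 0.14, −0.21 and −0.21 in WT 0 h, 1.94, 1.57 and 1.72 in WT 24 h, 0.04, −0.58 and −0.21 in Bach2-/- 0 h, and 2.08, 1.15 and 2.15 in Bach2-/- 24 h. Again no stimulated array fell within the unstimulated range. The rise was 3.57-fold in WT cells (1.84 ± 0.30, limma adjusted p = 0.00133) and 4.11-fold in Bach2-/- cells (2.04 ± 0.30, limma adjusted p = 0.000663). Hsd17b7, a reductase of the sterol route, rose 3.03-fold and 3.45-fold (limma adjusted p = 0.00246 and 0.00127). For Cyp51 and Hsd17b7 the Bach2-/- change was the larger by 0.20 and 0.19, neither past the test of the difference (limma adjusted p = 0.956 and 0.959).

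Lss, which folds epoxysqualene into lanosterol, rose 3.30-fold in WT cells (1.72 ± 0.37, limma adjusted p = 0.00719). In Bach2-/- cells its 24 h values were 1.55, −0.03 and 0.95, the low one on array 2, and the change of 1.15 did not pass (limma adjusted p = 0.0656, 0.00294 with the block, and 0.00615 without that array). Msmo1, the sterol methyl oxidase, rose 2.65-fold in WT cells and 2.22-fold in Bach2-/- cells (limma adjusted p = 0.013 and 0.0459), the WT call being lost without WT 0 h array 3 or WT 24 h array 1 and the Bach2-/- call under 13 of 23 alternatives. Nsdhl, a sterol dehydrogenase, rose 1.98-fold in WT cells (limma adjusted p = 0.0446), lost under 11 of 23 alternatives. The other 5 genes did not pass in either genotype. Fdft1, squalene synthase, changed by 1.23 and 0.99, Sc5d, the sterol desaturase, by 0.94 and 1.15, and both passed in both genotypes with the block. Without both doubted arrays Sc5d also passed in Bach2-/- cells (1.81, limma adjusted p = 0.0185). Tm7sf2, a sterol reductase, changed by 0.82 and 0.16, and with the block it passed in WT cells alone. Ebp, a sterol isomerase, and Dhcr7, which makes cholesterol from its last dehydro precursor, changed by 0.39 and 0.071 in WT cells and by 0.13 and −0.48 in Bach2-/- cells.

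Taking the 18 cholesterol synthesis genes as a group, 11 rose in WT cells and 5 in Bach2-/- cells, and 15 and 12 with the block. The median change was 1.28 in WT cells and 0.97 in Bach2-/- cells. Without both doubted arrays the Bach2-/- median was 1.57, a value that includes the slide imbalance of that fit. From Bach2-/- 0 h to 24 h, the median of centred signals went from 0.17 to 1.04 on array 1. It went from −0.81 to −0.092 on array 2 and from −0.52 to 0.57 on array 3. Of 6 proliferation markers, 2 rose in WT cells (Mcm2 and Pcna) and 0 passed in Bach2-/- cells by limma, where Pcna was higher at an unadjusted p under 0.05 (0.0224). With the block 5 rose in WT cells and 1 in Bach2-/- cells. All 6 markers already read higher in Bach2-/- 0 h than in WT 0 h (median 0.96), 3 at an unadjusted p under 0.05 and 0 past limma's test. Their summed signal was 35.2 to 44.6 in WT 0 h, 92.2 to 171 in WT 24 h, 39.6 to 64.2 in Bach2-/- 0 h and 49.8 to 117 in Bach2-/- 24 h, so the Bach2-/- ranges overlapped. The part of these genes in the result was not tested.

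**Figure D3:**
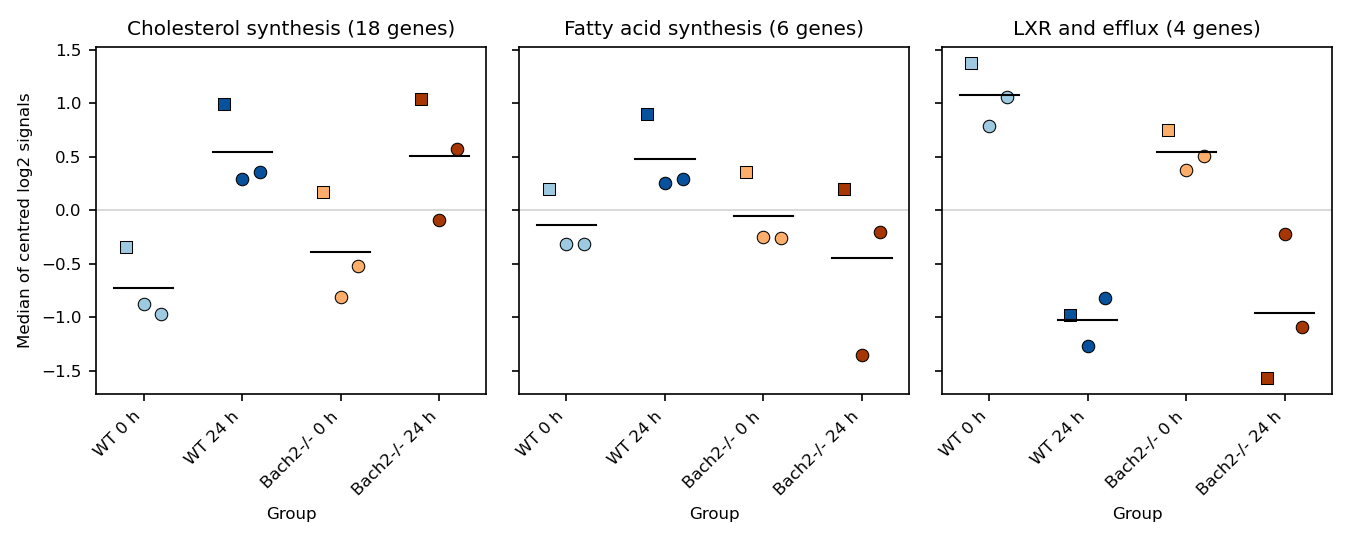
Median of the centred log2 signals of 3 role groups on each array (points; squares are slide 2, circles slide 1; bars are means of 3 arrays). The cholesterol synthesis median was −0.97 to −0.34 on WT 0 h arrays and 0.29 to 0.99 on WT 24 h arrays, the LXR and efflux median moved the other way, and the fatty acid median was lowest, −1.35, on Bach2-/- 24 h array 2.

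Genes that control SREBP did not all move together. Srebf2, which encodes the SREBP that drives cholesterol synthesis, read 2.38, 2.15 and 2.04 in WT 0 h, 3.79, 3.39 and 3.26 in WT 24 h, 2.59, 1.96 and 2.0 in Bach2-/- 0 h, and 3.77, 2.62 and 3.26 in Bach2-/- 24 h. Stimulated arrays were above unstimulated ones in both genotypes, narrowly so for Bach2-/- array 2. The gene rose 2.45-fold in WT cells (1.29 ± 0.31, limma adjusted p = 0.0125, and 0.0521 without WT 0 h array 3) and 2.04-fold in Bach2-/- cells (1.03 ± 0.31, limma adjusted p = 0.0494), the latter lost under 14 of 23 alternatives. Srebf1, whose products favour fatty acid genes, read −1.25, −1.48 and −1.15 in WT 0 h and −1.91, −2.02 and −1.73 in WT 24 h. That is a change of −0.60 ± 0.21 in the opposite direction, with groups that did not overlap and an adjusted p of 0.0662 by limma (0.00513 with the block). In Bach2-/- cells the change was −0.21, with overlapping groups.

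Insig1, itself a target of SREBP and the retention factor in this feedback loop, was among the tightest of the members. It read −1.11, −0.92 and −1.02 in WT 0 h, 0.56, 0.68 and 0.43 in WT 24 h, −0.76, −0.96 and −0.71 in Bach2-/- 0 h, and 0.68, 1.18 and 1.13 in Bach2-/- 24 h. Here array 1 was not the high one at 24 h in Bach2-/- cells. The rise was 2.97-fold in WT cells (1.57 ± 0.21, limma adjusted p = 0.000413) and 3.49-fold in Bach2-/- cells (1.80 ± 0.21, limma adjusted p = 0.000141). Scap changed by 0.54 and 0.06 and Insig2 by −0.34 and −0.12, none past the test, and with the block Scap passed in WT cells (limma adjusted p = 0.0306). Stard4, a soluble sterol carrier, rose 2.48-fold in WT cells (1.31 ± 0.21, limma adjusted p = 0.00137) and 1.73-fold in Bach2-/- cells (0.79 ± 0.21, limma adjusted p = 0.0289). The Bach2-/- call for Stard4 was lost under 9 of 23 alternatives, among them leaving out Bach2-/- 0 h array 1 (limma adjusted p = 0.0506).

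Fatty acid synthesis genes split by step. In WT cells 3 of 6 rose: Acly, which supplies cytosolic acetyl-CoA (1.80-fold, limma adjusted p = 0.0467, lost under 15 of 23 alternatives), Acaca, which makes malonyl-CoA (2.54-fold, limma adjusted p = 0.0083), and the elongase Elovl6. In Bach2-/- cells none of the 6 rose by limma and 2 fell, the desaturases Scd1 and Scd2. Acaca changed there by 0.72 (limma adjusted p = 0.158), and it passed with the replicate block (0.0133), after quantile normalization (0.0152) and without Bach2-/- 24 h array 2 (0.0257). Other kept probes of Acaca changed there by 0.19 and 1.09. Acly changed there by 0.048, and by 0.66 on another kept probe. The median change was 0.66 in WT cells and −0.28 in Bach2-/- cells, and the latter turned to 0.20 without Bach2-/- 24 h array 2. Fasn, the synthase itself, changed by 0.47 and −0.26 and passed in neither.

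Elovl6, which lengthens palmitate, read −1.33, −2.11 and −2.08 in WT 0 h, 0.31, −0.69 and −0.17 in WT 24 h, −1.25, −1.56 and −1.54 in Bach2-/- 0 h, and −1.10, −2.66 and −1.52 in Bach2-/- 24 h. All 3 WT 24 h arrays were above all others, and the Bach2-/- groups overlapped. It rose 3.16-fold in WT cells (1.66 ± 0.41, limma adjusted p = 0.0134, and 0.051 to 0.0564 without WT 0 h array 2 or 3 or WT 24 h array 1), while in Bach2-/- cells the change was −0.31 ± 0.41 (limma adjusted p = 0.778). The difference of the 2 responses, −1.97 ± 0.57, had an adjusted p of 0.299 by limma and of 0.0141 with the replicate block. It was the single member past the test of that difference with the block, where 3.19% of all genes passed as lower, about the same share as among the members.

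Scd1, the main stearoyl-CoA desaturase, read 5.96, 5.12 and 5.44 in WT 0 h, 4.65, 3.90 and 3.86 in WT 24 h, 5.52, 4.72 and 4.88 in Bach2-/- 0 h, and 4.07, 2.15 and 3.24 in Bach2-/- 24 h. Stimulated arrays were below unstimulated ones in both genotypes. It fell 3.71-fold in Bach2-/- cells (−1.89 ± 0.46, limma adjusted p = 0.016), and in WT cells the change was −1.37 ± 0.46 (limma adjusted p = 0.0527, and 0.00087 with the block). Scd2, a second desaturase, fell 2.72-fold in Bach2-/- cells (−1.44 ± 0.34, limma adjusted p = 0.0144) and changed by −0.50 in WT cells. Both Bach2-/- calls were lost without Bach2-/- 0 h array 1 (limma adjusted p = 0.0617 for Scd1 and 0.057 for Scd2). The test of the difference between genotypes gave adjusted p-values of 0.899 and 0.708 for them by limma.

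The sterol exporters fell the most. Abcg1, which passes cholesterol to lipoproteins, read 3.68, 3.85 and 3.90 in WT 0 h, −1.15, −1.09 and −0.61 in WT 24 h, 4.33, 4.16 and 4.23 in Bach2-/- 0 h, and −1.21, −0.99 and −0.35 in Bach2-/- 24 h. The gap between stimulated and unstimulated arrays was many times the spread within a group. It fell 27-fold in WT cells (−4.76 ± 0.26, limma adjusted p = 1.76e-06) and 34-fold in Bach2-/- cells (−5.09 ± 0.26, limma adjusted p = 4.98e-07). Abca1, which loads cholesterol onto apolipoproteins, read 3.13, 2.48 and 2.60 in WT 0 h, 0.09, −0.09 and 0.29 in WT 24 h, 2.03, 1.65 and 1.77 in Bach2-/- 0 h, and −1.37, 0.87 and −0.98 in Bach2-/- 24 h. Stimulated arrays were all below the unstimulated ones of their genotype, and Bach2-/- 24 h array 2 was the high one of its group. The fall was 6.23-fold in WT cells (−2.64 ± 0.47, limma adjusted p = 0.0025) and 4.96-fold in Bach2-/- cells (−2.31 ± 0.47, limma adjusted p = 0.00628).

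Of the receptors themselves, Nr1h2 (LXR beta) changed by 0.087 and 0.0073 and passed in neither genotype. Nr1h3 (LXR alpha) was dim. It read −3.02, −3.56 and −3.15 in WT 0 h, −4.72, −5.11 and −4.59 in WT 24 h, −3.37, −3.55 and −3.40 in Bach2-/- 0 h, and −4.44, −3.01 and −2.46 in Bach2-/- 24 h. It fell 2.95-fold in WT cells (−1.56 ± 0.42, limma adjusted p = 0.0203), a call lost with normexp background correction (limma adjusted p = 0.721) and without WT 0 h array 1 or 3 or WT 24 h array 2 (0.0631 to 0.0693). Array 1 of the Bach2-/- 24 h group lay below every unstimulated array, and arrays 2 and 3 lay above every Bach2-/- 0 h array. The change in Bach2-/- cells was 0.13 ± 0.42, with slide values of −1.07 on slide 2 and 0.74 on slide 1.

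**Figure D4:**
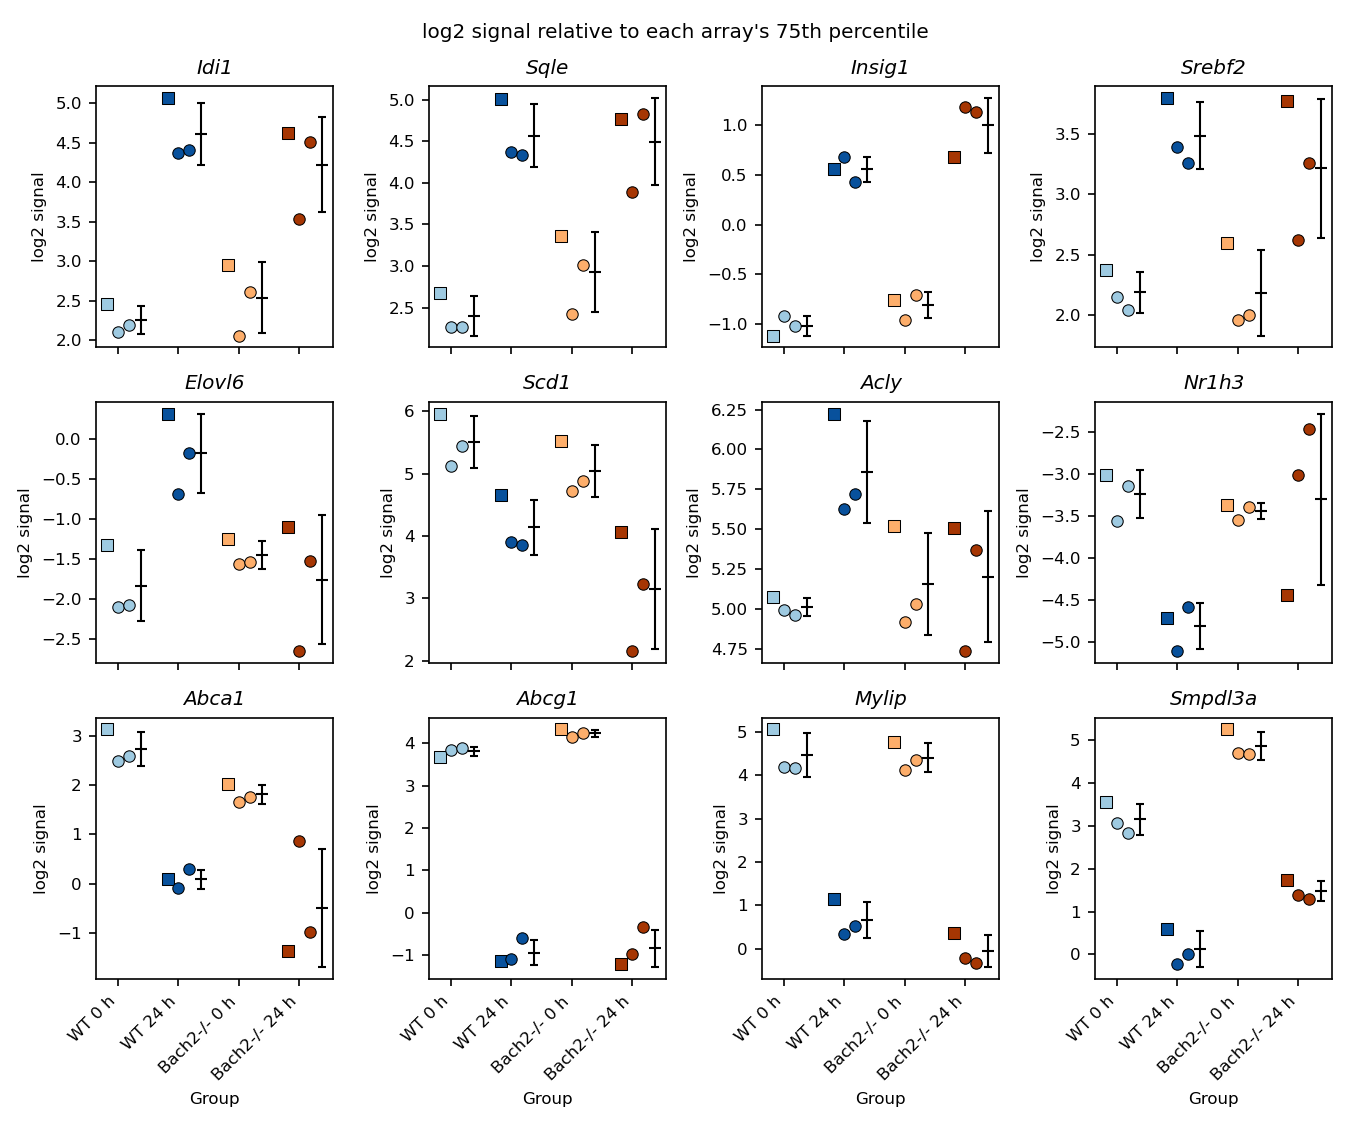
Log2 signal of 10 members and 2 other LXR targets, Mylip and Smpdl3a, on each array (points; squares slide 2, circles slide 1) with the group mean and SD beside them, n = 3 per group. Idi1, Sqle, Insig1 and Srebf2 are higher at 24 h in both genotypes, Elovl6 is high in WT 24 h alone, and Abca1, Abcg1, Mylip and Smpdl3a are lower at 24 h in both.

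Between genotypes, 0 members passed at 0 h by limma, also 0 at an unadjusted p under 0.05, where 0.756% of all genes passed. The difference was positive for 25 of 34 members, with a median of 0.17 against 0.028 over all genes. The median of the cholesterol genes, 0.28, was 0.0036 without both doubted arrays. In that fit WT 0 h keeps its slide 2 array and Bach2-/- 0 h does not, so slide and genotype are mixed. Abca1 was lower in every Bach2-/- 0 h array than in every WT 0 h array (−0.92 ± 0.47, 1.89-fold, limma adjusted p = 0.898), and Abcg1 was higher in every one (0.43 ± 0.26, limma adjusted p = 1). Across all genes, 5.04% were separated downward and 7.69% upward in this way.

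At 24 h, 0 members passed between genotypes by limma, where 3.21% of all genes passed, and 1 member was higher and 3 lower at an unadjusted p under 0.05. With the replicate block 1 was higher (Nr1h3, 1.5, limma adjusted p = 0.0239) and 4 were lower, all of them in fatty acid synthesis, where 8.13% and 11.5% of all genes were. The 4 were Elovl6 (−1.58, limma adjusted p = 0.00208), Scd1 (−0.99, 0.0184), Acly (−0.65, 0.0258) and Scd2 (−0.84, 0.0335). Without the block their adjusted p-values were 0.0661 to 0.383. All 6 fatty acid genes were negative, with a median of −0.78 against −0.055 over all genes, and the median was −0.43 without Bach2-/- 24 h array 2. For Elovl6, Acly and Scd2 the genotypes did not overlap at 24 h, a separation downward seen in 8.62% of all genes, about the share among the members. Other kept probes gave different sizes at 24 h. For Acly another probe gave −0.23 against the −0.65 reported, and for Acaca others gave −1.13 and −0.066 against −0.47.

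The cholesterol genes at 24 h had a median genotype difference of −0.10, which was 0.055 after quantile normalization and 0.11 without Bach2-/- 24 h array 2. Their differences ran from −0.48 (Dhcr7) to 0.31 (Sc5d). Without that array Abca1 passed as lower in Bach2-/- cells (−1.27, limma adjusted p = 0.0342). Without Bach2-/- 24 h array 1, Nr1h3 passed as higher (2.07, limma adjusted p = 0.00306) and Elovl6 as lower (−1.91, limma adjusted p = 0.0361).

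Nr1h3 is also made by macrophages, and their markers differed between the groups. Of 12 macrophage and monocyte markers 8 were tested, and their summed signal was 10.4 to 12.8 in WT 24 h and 32.1 to 96.2 in Bach2-/- 24 h. Of the 8, 3 passed as higher in Bach2-/- 24 h cells, Cd5l, Lyz2 and Marco (4.08, 2.81 and 2.06). The other 5 did not pass: Cd14 differed by 1.57, C1qb by 0.48, Vcam1 by 0.40, Csf1r by 0.31 and Adgre1 by −0.48. Of the 4 not tested, C1qa, C1qc and Mrc1 were above background on at most 4 arrays, and Cd68 was not named by a probe. Their part in the Nr1h3 difference was not tested.

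The responses of the 2 genotypes were compared directly as the difference of the 24 h changes. By limma 0 members passed, where 0.343% of all genes did, and 1 was higher (Nr1h3, 1.70) and 1 lower (Elovl6) at an unadjusted p under 0.05. The median over the members was −0.41, with 25 of 34 negative, against −0.089 over all genes. That median was −0.15 after quantile normalization and 0.057 without both doubted arrays. The latter fit takes slide 2 out of Bach2-/- 0 h alone, so the slide enters its difference of responses. Without Bach2-/- 24 h array 1, Nr1h3 passed (2.26, limma adjusted p = 0.0414).

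WT and Bach2-/- changes rest on different arrays, and over the 34 members they had Pearson's r = 0.91 and Spearman's rho = 0.82, against 0.76 and 0.68 over all 22744 genes. These are descriptions across genes measured on the same 2 slides, and genes are not replicates. The sign was shared by 29 of the 34 members and by 73.1% of all genes. Each of the 20 members called in WT cells and the 12 called in Bach2-/- cells had the same sign on slide 1 and on slide 2.

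Other genes of the pathway, taken from lists of each branch, were read beside the members. Their counts stand against the shares of all genes. By limma 12.5% rose and 9.38% fell in WT cells, and 5.92% and 8.11% in Bach2-/- cells. With the replicate block these were 27.9% and 19.4% in WT cells, and 17% and 16.9% in Bach2-/- cells. Of 7 further genes of the cholesterol and isoprenoid branches described here, 2 rose and 1 fell in WT cells, and 1 rose in Bach2-/- cells, while with the replicate block 4 rose and 2 fell in WT cells and 3 rose and 2 fell in Bach2-/- cells. Tmem97, a sterol-regulated membrane protein, read 1.21, 0.76 and 0.44 in WT 0 h, 3.56, 2.77 and 2.85 in WT 24 h, 1.80, 1.12 and 1.13 in Bach2-/- 0 h, and 3.23, 1.86 and 3.02 in Bach2-/- 24 h. Stimulated arrays lay above unstimulated ones in both genotypes. It rose 4.77-fold in WT cells and 2.56-fold in Bach2-/- cells (limma adjusted p = 0.00207 and 0.0398), the latter lost under 12 of 23 alternatives. Pdss1, of the ubiquinone branch, rose 3.45-fold in WT cells, and Ggps1, which leads to geranylgeranyl units, fell 1.87-fold, a call lost under 11 of 23 alternatives. They changed by 1.07 and −0.78 in Bach2-/- cells (limma adjusted p = 0.133 and 0.103, and 0.000462 and 0.00128 with the replicate block).

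Of 9 further fatty acid synthesis genes tested, 3 rose in WT cells, and 2 rose and 1 fell in Bach2-/- cells, while with the block 4 rose and 2 fell in WT cells and 3 rose and 3 fell in Bach2-/- cells. Fads1, a desaturase of long polyunsaturated chains, rose 3.75-fold and 3.35-fold. Slc25a1, the mitochondrial citrate exporter that feeds Acly, rose 3.36-fold in WT cells and changed by 0.72 in Bach2-/- cells (limma adjusted p = 0.261, and 0.0145 with the block). Acacb rose in WT cells (1.33, limma adjusted p = 0.0344), lost under 9 of 22 alternatives and with the highest adjusted p, 0.815, after normexp background correction. It was not well above background on every array and may have been kept for testing only through WT 24 h, where it was high. In that case its adjusted p gives no support for the rise, though it is counted among the 3. Mid1ip1, which activates acetyl-CoA carboxylase, fell in Bach2-/- cells (−0.98, limma adjusted p = 0.0324), lost under 10 of 23. Me1, malic enzyme, was not well above background on any array of the other 3 groups and was so on all 3 Bach2-/- 24 h arrays, at −3.01, −3.06 and −3.17. It was at least 2.94-fold higher than in WT 24 h cells and at least 4.70-fold higher than in Bach2-/- 0 h cells, each bound being the mean of the bright group against the lowest signal well above background on the dim arrays. Normexp background correction ended its call at 24 h (limma adjusted p = 0.267). Me1 is counted among the 2 that rose in Bach2-/- cells, though it was kept for testing only through the group where it was high.

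Among 10 other LXR targets and sterol storage genes, Mylip, Smpdl3a and Soat1 fell in both genotypes. Mylip, a ubiquitin ligase, read 5.06, 4.20 and 4.17 in WT 0 h, 1.14, 0.35 and 0.52 in WT 24 h, 4.76, 4.11 and 4.35 in Bach2-/- 0 h, and 0.37, −0.21 and −0.32 in Bach2-/- 24 h. The fall was 14-fold in WT cells and 22-fold in Bach2-/- cells (limma adjusted p = 2.76e-05 and 5.68e-06). At 24 h it differed by −0.72 between genotypes (limma adjusted p = 0.385, and 0.00778 with the block). Smpdl3a, a phosphodiesterase, fell 8.17-fold and 10.6-fold, and it was higher in Bach2-/- cells at 0 h (1.72, limma adjusted p = 0.0215) and at 24 h (1.35, limma adjusted p = 0.03), calls lost under 8 and 11 of 23 alternatives. Soat1, which esterifies cholesterol, fell 1.65-fold and 2.02-fold, calls lost under 4 and 2 of 23 alternatives. Of the 10, 3 fell in each genotype, 0 rose in WT cells by limma (1 at an unadjusted p under 0.05) and 1, Lpl, rose in Bach2-/- cells. Lpl was kept for testing only through Bach2-/- 24 h, the group where it was high. With the block 2 rose and 3 fell in WT cells, and 3 rose and 4 fell in Bach2-/- cells.

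Apoe, the apolipoprotein, was higher in Bach2-/- cells. Its values were 5.42, 4.74 and 4.40 in WT 0 h, 5.09, 4.28 and 4.18 in WT 24 h, 7.90, 6.64 and 6.81 in Bach2-/- 0 h, and 7.74, 8.48 and 7.11 in Bach2-/- 24 h, with no overlap between genotypes. The difference was 9.55-fold at 24 h (3.26 ± 0.45, limma adjusted p = 0.00205) and 4.80-fold at 0 h (2.26 ± 0.45, limma adjusted p = 0.0504, and 0.00379 with the block). Lpl, lipoprotein lipase, was at least 4.15-fold higher in Bach2-/- 24 h than in WT 24 h cells. This Lpl call (limma adjusted p = 0.0196) was lost under 6 of 22 alternatives, among them normexp background correction (0.412). Since Lpl was kept for testing only through the Bach2-/- 24 h arrays, where it was high, its adjusted p-values give no support for a difference. The Lpl rise in Bach2-/- cells was lost with normexp too (limma adjusted p = 0.0788). Lpl was at the floor on 3 arrays and Apoe kept its 24 h call throughout. Both genes are abundant in macrophages, of whose 8 tested markers 3 were higher in Bach2-/- cells at 24 h, as given above. At 0 h 0 of the 8 passed by limma, and their summed signal was 4.66 to 14.2 in WT and 7.9 to 11.4 in Bach2-/- cells. Summed markers of some other cells also stood higher in Bach2-/- cells, and others did not. The erythroid and platelet sum was 1.69 to 7.31 in WT 0 h against 16.4 to 52.2 in Bach2-/- 0 h, and 0.258 to 1.32 against 3.71 to 16.4 at 24 h. The neutrophil sum was 11.1 to 30.6 against 25.9 to 53 at 0 h and 1.52 to 16.5 against 10.9 to 49.8 at 24 h, with overlapping ranges. Of 7 neutrophil markers, 0 passed and 1 was negative at each time. Of 6 T cell markers, 4 were negative and 0 passed at 0 h, while all 6 were positive and 1 passed at 24 h. The part of these cells was not tested.

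Of the oxysterol genes, Cyp27a1, a sterol hydroxylase, was at least 2.33-fold lower after stimulation in WT cells and at least 4.33-fold lower in Bach2-/- cells. Cyp39a1, another hydroxylase, fell 5.22-fold and 15.2-fold (limma adjusted p = 0.00135 and 4.26e-05) and was lower in Bach2-/- cells at 24 h (−1.66, limma adjusted p = 0.0414), lost under 14 of 23 alternatives. Among 10 fatty acid oxidation genes, 2 rose in WT cells (Acadl and Etfdh, 1.16 and 0.87, calls lost under 2 and 13 of 23 alternatives). By limma 0 passed in Bach2-/- cells, where 1 was higher and 1 lower at an unadjusted p under 0.05. Acadl changed there by 0.76 (limma adjusted p = 0.128, and 0.00458 with the replicate block). With the block 4 of the 10 rose (27.9% of all genes) and 2 fell (19.4%) in WT cells. In Bach2-/- cells 2 rose (17% of all genes) and 2 fell (16.9%) with the block.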

How the data were processed

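Total RNA of 12 samples was labelled with Cy3 and scanned with Agilent Feature Extraction 10.7.3.1, per the submitters' processing notes. The deposited scanner files hold, per spot, the processed, median and background intensity made by the authors' software, with flags; no spot was saturated. The authors also deposited a table of log2 values that matched the scanner values, shifted by the 75th percentile and centred per probe (r 0.99869 to 0.99972); its column medians ran from −0.27151 to 0.49793.

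Processed signals were divided by each array's 75th percentile, floored at 0.01 and taken to log2. Flagged outlier spots were left out, spots averaged per probe, and 30735 probes kept that were flagged well above background on 3 of 3 arrays in at least 1 group. RefSeq accessions named 26413 probes, and 13137 of the 22744 genes tested had a RefSeq symbol; other features kept the names of the array's design. Of several probes of a gene the one with the highest mean was used; 12 members had several. limma 3.58.1 (R 4.3.3) was fitted to 4 group means on 12 arrays, with an adjusted p under 0.05 as the threshold; the script was tested on simulated data. The number of arrays limits precision.

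The members and gene lists were chosen with earlier results of these data known. Named were all 34 members, the listed pathway genes past the test in a comparison, Bach2 and the markers. A few listed pathway genes are not reported here. Same-numbered arrays of different groups deviated together: the numbers are those of the titles, and the 18 pairs had r of 0.47 to 0.89. Differently numbered arrays had r of 0.25 to 0.64 on the same slide (12 pairs) and −0.82 to −0.42 across slides (24 pairs). Part of the shared deviation therefore goes with the slide. Values with the number as a block are given for members whose call they change and as counts for the other lists. Alternatives were quantile normalization, normexp (on median signals, since mean signals were not used here), the deposited table, other filters and probe rules, slide and replicate blocks, single slides and leaving out arrays.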

Additional observations from a re-analysis of the deposited data

Results flagged for a closer look

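The difference of responses passed limma's test for 78 of the 22744 genes, 0 of them members. Among the listed pathway genes and markers 2 passed. Me1 had a difference of 3.55 on the log2 scale (limma adjusted p = 0.000125, n = 3 per group) between the responses of Bach2-/- and WT cells, higher on 3 of 3 Bach2-/- 24 h arrays than on all others. On 7 of its 12 arrays Me1 was at the floor, so the size depends on the floor and the spread of those groups is understated. Me1 was kept for testing only through the Bach2-/- 24 h arrays, where it was high, so its adjusted p gives no support for a difference. The call was lost with normexp background correction (limma adjusted p = 0.951) and with no filter on dim probes (limma adjusted p = 0.48). Cd5l, a protein secreted by macrophages, had a difference of 4.18 (limma adjusted p = 0.0309): it rose 17.1-fold in WT cells and 310-fold in Bach2-/- cells.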

How the results depend on the processing

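At 0 h, 0 members passed between genotypes under every alternative run. At 24 h the count of 0 became 5 with the slide block, 5 with the replicate block, 1 on slide 1 alone and 1 without both doubted arrays, and ran from 0 to 2 when single arrays were left out. The 20 members called in WT cells ranged from 11 to 21 when single arrays were left out, and from 16 to 27 under the other alternatives, where 27 came from the replicate block. The 12 called in Bach2-/- cells became 20 with the slide block, 20 with the replicate block and 7 with only the compared groups fitted, and ranged from 9 to 16 without single arrays. For the difference of responses, 0 became 1 with the slide block, 1 with the replicate block and 0 to 1 without single arrays. The pairing by replicate number gave these block values. Among the fits, shares of all genes were taken only for the main one and the replicate block. Idi1, Fdps, Sqle, Lss, Cyp51, Hsd17b7, Acaca, Insig1, Stard4, Abca1 and Abcg1 in WT cells, and Idi1, Sqle, Cyp51, Hsd17b7, Insig1, Abca1 and Abcg1 in Bach2-/- cells, passed under all 23 alternatives. No call changed sign. The causes of these changes were not tested, and some fits have fewer samples and slides unequally shared between groups. Slide 2 alone holds 1 array per group and gave values with no test. Quantile normalization moved no median of all genes by more than 0.1. Weak signal over background limits Nr1h3, Me1, Lpl, Acacb and Cyp27a1.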

Other observations

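Beyond the sterol genes, follicular and mature B cell markers fell with stimulation. Cr2, the complement receptor of mature B cells, changed by −3.99 in WT cells and −5.00 in Bach2-/- cells on the log2 scale, and Fcer2a (CD23) by −3.05 and −3.42 (limma adjusted p = 3.17e-06, 4.2e-07, 0.000137 and 4.93e-05). Prdm1, the plasma cell regulator that BACH2 represses, was 30.6-fold higher in Bach2-/- than in WT cells at 24 h (limma adjusted p = 5.74e-05). It was the highest of 5 plasma cell markers, whose differences ran from −0.24 to 4.94. Of the 5, 2 passed as higher and 1 was negative. Their summed signal overlapped, at 87.9 to 151 in WT 24 h and 112 to 205 in Bach2-/- 24 h. Of 2 oxysterol genes, Ch25h and Cyp7b1, neither was well above background on any array, and the desaturase Fads2 was so on 3 arrays, so none of the 3 was tested.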
